A study of Homo sapiens with 24 samples.

Results

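THP1 cells that had been turned into macrophages with the phorbol ester PMA were described here as they stood before any perturbation, from the 6 libraries of wild-type cells that carried the empty vector. THP1 is a human line grown from an acute monocytic leukaemia. The members were chosen by their label, WT_shCTRL: wild-type genotype and lentivirus made with pLKO.1 that held no hairpin. They are 6 of 24 labelled samples, 23 of which stood in the count table used here. The study crosses a knockout of CD33, an inhibitory receptor of the Siglec family, with a knockdown of PTPN6, which encodes the phosphatase SHP-1, and these libraries are its unperturbed corner. No other group was used. Cells were left with virus for 24 h and rested for 48 h before selection in 1 µg/ml puromycin. They were then given 10 ng/ml PMA for 48 h and a further 48 h without it, so every value belongs to transduced, drug-selected and PMA-treated cells, and no untreated monocyte was measured beside them. The line is a leukaemia with its own rearranged genome, which limits it as a model of a blood-derived macrophage. Nothing in the labels tells if the 6 replicates grew as independent cultures, and the spread given below may therefore be technical in part.

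Monocytes are made in the bone marrow from granulocyte-monocyte progenitors and leave the blood to become macrophages, which engulf particles and digest them in lysosomes. The transcription factor PU.1, encoded by SPI1, sets up the myeloid programme, and the receptor for colony-stimulating factor 1, CSF1R, keeps macrophages alive. PMA activates protein kinase C in place of a natural ligand. It makes THP1 cells stick, spread and slow their division. THP1 carries a fusion of KMT2A with MLLT3, a class of lesion known for high HOXA gene expression.

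Reads were counted near the 3′ ends of polyadenylated RNA, prepared from 100 ng of total RNA. One such read stands for about 1 transcript whatever its length, so levels of different genes were set side by side as CPM, counts per 1000000 counts of the library, with no division by length. A gene was called expressed when it reached at least 1 CPM in every one of the 6 libraries. Values written with ± are the mean and SD of CPM over the 6 libraries (n = 6). The libraries held 4170191 to 5700712 counts. Genes of the mitochondrial genome took 5.86% to 6.54% of them and ribosomal protein genes took 6.18% to 7.27%, with the higher ribosomal shares in replicates 6 and 4. No pair of libraries agreed within counting noise (chi-square of 1.65 to 3.66 per degree of freedom), so none was taken for a library deposited more than once. That does not show that they came from separate cultures.

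Of 60617 gene identifiers, 13171 were expressed. Among 19922 protein-coding genes the number was 11584, or 58.1%, and the median level of a protein-coding gene was 6.04 CPM. A further 32026 identifiers had no count in any library. That count of 0 allows a level of up to 0.104 CPM, which is 3 counts of the 28968275 in the group, and the limit covers counting error alone. Abundant genes carried most of the RNA: 94 genes had a mean of at least 1000 CPM and held 25.4% of the mean library, while 2019 genes of at least 100 CPM held 70.1%. The 10 most abundant genes took 10.3% ± 0.123 of a library, and 672 ± 15 genes together took 50%. Protein-coding genes took 94.0% of the mean library and long intergenic RNAs 1.82%.

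The most abundant RNA was MT-RNR2, the large ribosomal RNA of the mitochondrion, at 22163 ± 1185 CPM. CAP1, which encodes a protein that recycles actin monomers, came next with 14654 CPM in the lowest library, a median of 14966 and 15518 in the highest. These 6 values lay close together, with a CV of 2.63%. MALAT1, a nuclear long non-coding RNA, stood at 12588 ± 644 CPM. SPP1, which encodes the secreted matrix protein osteopontin, had 11636 CPM in the lowest library, a median of 12242 and 12874 in the highest. MALAT1 and SPP1 overlapped across libraries. The only other nuclear gene in the first 6 was B2M, the light chain of MHC class I molecules, with 8839 CPM in the lowest library, a median of 9396 and 10415 in the highest.

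The next ranks held genes of adhesion, calcium binding and matrix cutting. S100A4 stood at 5183 ± 508 CPM and S100A6, a related calcium-binding protein, at 3621 ± 269.8. ITGB2, the beta chain shared by the leukocyte integrins, stood at 4915 ± 294 CPM. MMP14, a membrane-bound collagenase, stood at 3797 ± 311 CPM, and the lysosomal thioesterase gene PPT1 at 4408 ± 286. The remaining places among the 20 most abundant were filled by MT-CO3, MT-ND4, MT-ND3, MT-ND2, MT-CYB and MT-CO2 of the respiratory chain, by the ribosomal protein genes RPL37A, RPL27A and RPS14, and by ACTG1, a cytoplasmic actin. Of the 20 genes ranked highest in each library, 17 were the same in all 6 libraries, and 22 genes filled those places in total. PNOC, the precursor of the neuropeptide nociceptin, was at rank 47 with 1650.0 ± 35.9 CPM and was picked out after its value was seen.

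**Figure D1:**
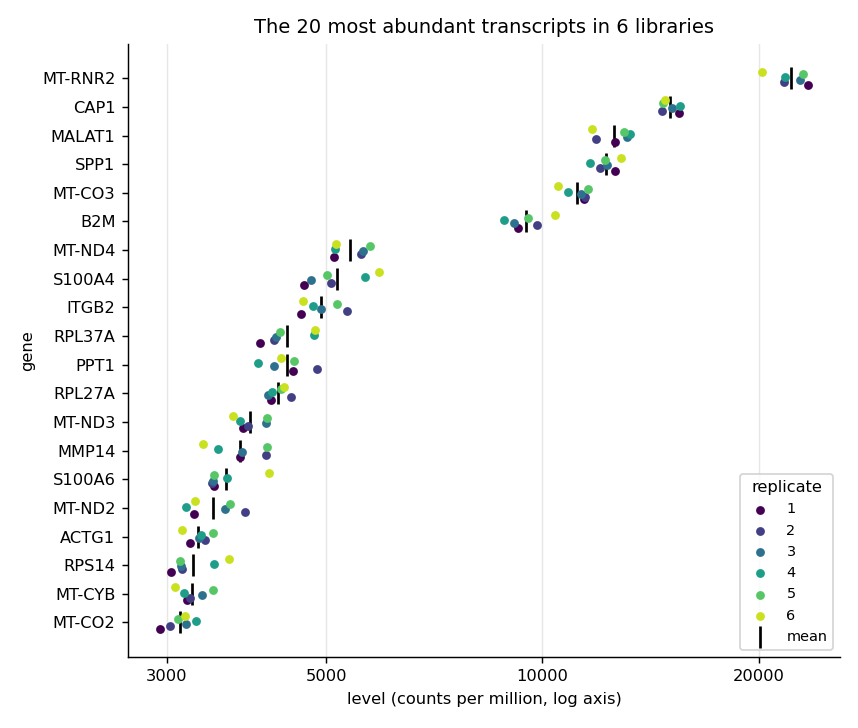
Level of the 20 genes with the highest mean (rows) in CPM on a log axis, with 1 point for each of the 6 libraries and a black bar at the mean. CAP1, SPP1 and MALAT1 lie at or above 11636 CPM in every library, and replicate 6 is the lowest library for MT-RNR2 and the highest for S100A4 and B2M.

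Among long non-coding RNAs, MALAT1 was followed by SNHG29 at 757 ± 47.4 CPM, NEAT1 at 562 ± 114, SNHG6 at 395 ± 38.1 and SNHG5 at 291 ± 24. The SNHG genes host small nucleolar RNAs in their introns. NEAT1, which scaffolds nuclear paraspeckles, varied more than MALAT1, with 396 CPM in the lowest library, a median of 567 and 706 in the highest.

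The label of macrophage-like cells was read against 6 markers, all of which were expressed. CD14, the co-receptor for bacterial lipopolysaccharide, had 245 CPM in the lowest library, a median of 293 and 326 in the highest. CSF1R had 263 CPM in the lowest library, a median of 276 and 279 in the highest, a narrower range than CD14. Both stood far above the median protein-coding gene. SPI1 had 52.4 CPM in the lowest library, a median of 69 and 73.6 in the highest. ITGAM, the alpha chain of complement receptor 3, stood at 65 ± 5.83 CPM and ITGAX, that of complement receptor 4, at 66.1 ± 7.63. These 2 chains pair with the same ITGB2, and their levels did not differ beyond the spread between libraries: the mean log2 ratio of ITGAM to ITGAX, on CPM + 0.5, was -0.02 ± 0.23 (SD), and the adjusted p was 0.781 in an exact two-sided sign-flip permutation test over 6 libraries. LYZ, the gene of lysozyme and one of the most abundant transcripts of blood monocytes, was the lowest of the markers, with 24.4 CPM in the lowest library, a median of 26 and 32.6 in the highest. Its annotated 3′ end is overlapped over 97% of 300 bases by a gene on the opposite strand, and whether reads were lost to that overlap was not tested. For a gene with several annotated transcripts, 3′ end overlap and sharing are given here and below as the highest value among them.

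That sign-flip test was used for 18 pairs of genes read in the same library. Its p-values were adjusted by Benjamini-Hochberg over the 18. With 6 libraries it cannot give a p below 0.03125, and 16 pairs reached that value (adjusted p = 0.0352) because the same gene was higher in 6 of 6 libraries. The pairs were chosen with earlier results of these data known, and the adjustment does not cover that choice. For genes manyfold apart the smallest p was fixed in advance and adds nothing to the levels themselves. Where a pair is named below, this exact test is meant.

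Of 32 genes of macrophage maturation, 26 were expressed, a share of 81.2% beside 58.1% of all protein-coding genes, with a median of 16.7 CPM. The list was spread over a wide range. TYROBP, the adaptor through which many activating myeloid receptors signal, stood at 1004 ± 74 CPM and TREM2, a lipid-sensing receptor that signals through it, at 633 ± 38.8. CHI3L1, a secreted chitinase-like protein, had 663 ± 41.1 CPM, and the gelatinase MMP9 403 ± 40.4. The scavenger receptor CD36 stood at 118 ± 6.5 CPM, the foam-cell proteins FABP4 at 48.6 ± 4.79 and LPL at 72.8 ± 5.19, and the glycoprotein GPNMB at 46.9 ± 6.36. Other genes of mature tissue macrophages were mixed. AIF1 stood at 107 CPM, SIGLEC1 at 41.3, MSR1 at 39.4 and MERTK at 27.1, while 6 of the 32 genes did not reach 1 CPM in every library. MRC1, the mannose receptor, had 18 counts in all 6 libraries together and a mean of 0.595 ± 0.42 CPM, against 23.9 ± 5.02 CPM of the haemoglobin scavenger receptor CD163. CD163 was higher than MRC1 in 6 of 6 libraries, with a log2 ratio of MRC1 to CD163 of -4.53 ± 0.59 (SD) and an adjusted p of 0.0352 (exact sign-flip permutation test). MARCO, at 1.01 ± 1.06 CPM, the chitinase CHIT1, at 0.821 ± 0.544, and the Fc receptor FCGR3A, at 0.522 ± 0.593, did not reach 1 CPM in every library. FCGR3A shares 29.5% of the 50-base windows of its 3′ end with a near-identical copy. CD68, a lysosomal protein used to stain macrophages, had 37.7 ± 3.17 CPM, and another annotated gene on the same strand covers 71% of its 3′ end, so its level is uncertain.

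Adhesion and Fc receptor genes were led by ITGB2 and by FCER1G, the signalling chain shared by Fc receptors, at 1257 ± 42.6 CPM. Of 22 such genes 16 were expressed (72.7%, beside 58.1% of all protein-coding genes). The high-affinity IgG receptor FCGR1A stood at 11.1 ± 1.86 CPM and FCGR2A at 11.3 ± 1.41, both well below their signalling chain. The neonatal Fc receptor FCGRT, which rescues IgG from degradation, stood at 245 ± 7.87 CPM. Among scavenger receptors 15 of 19 were expressed (78.9%, beside the same 58.1%). SCARB2, a lysosomal membrane receptor, led with 162 ± 12.8 CPM, while TIMD4, which binds phosphatidylserine on dying cells, had 53.3 ± 5.39. STAB2 and SCARA5 stood at 0.175 and 0.0883 CPM.

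Genes of the lysosome were expressed nearly throughout, at 30 of 32 (93.75%, beside 58.1% of all protein-coding genes). Their median was 227 CPM, and 21 of the 32 stood at 100 CPM or more, beside 9.96% of all protein-coding genes. CD63, a tetraspanin of late endosomes, had 3095 ± 149 CPM. PSAP, whose product is cut into activators of sphingolipid breakdown, had 1915 ± 83.4. The aspartic protease gene CTSD stood at 1088 ± 65.3 CPM and that of the cysteine protease CTSB at 401 ± 17.6. CTSD was higher in 6 of 6 libraries, with a log2 ratio of CTSB to CTSD of -1.44 ± 0.10 (SD) and an adjusted p of 0.0352 in the exact test. CTSK, the collagen-degrading protease of osteoclasts, was at 6.69 ± 0.943 CPM.

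The oxidase that makes superoxide in phagocytes was present in 6 of its 7 listed genes (85.7%, beside 58.1% of all protein-coding genes). CYBB, its catalytic membrane subunit, had 164 CPM in the lowest library, a median of 184 and 188 in the highest. CYBA, the partner subunit, had 97.8 CPM in the lowest library, a median of 127 and 161 in the highest, a wider range that overlapped with that of CYBB. Within each library CYBB was nonetheless the higher (6 of 6, log2 ratio 0.50 ± 0.32 (SD), adjusted p = 0.0352, exact test). The cytosolic subunit NCF4 stood at 136 ± 4.21 CPM. NCF1 was listed at 0.159 ± 0.249 CPM, but its 3′ end is shared over its whole length with the copies NCF1B and NCF1C, so this value does not show that the gene was silent.

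Genes that cut or build the matrix were expressed at 21 of 23 (91.3%, beside 58.1% of all protein-coding genes), with a median of 126 CPM. Beside SPP1 and MMP14 these included PLAUR, the receptor of urokinase, at 659 ± 65.2 CPM and urokinase itself, PLAU, at 189 ± 25.2. TIMP1, an inhibitor of metalloproteinases, stood at 506 ± 22.4 CPM and was higher than MMP9 in 6 of 6 libraries (log2 ratio of MMP9 to TIMP1 -0.33 ± 0.20 (SD), adjusted p = 0.0352, exact test). LGALS1, a galectin, had 876 CPM in the lowest library, a median of 927 and 1306 in the highest, with replicates 6 and 4 the highest. SERPINB2 and MMP10 were the lowest, at 1.56 and 1.91 CPM.

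Of 18 listed genes of blood monocytes, not all of them particular to the classical kind, 12 were expressed (66.7%, near the 58.1% of all protein-coding genes). The list median was 6.40 CPM beside 6.04 for all protein-coding genes. S100A9 and S100A8, the paired alarmins that form calprotectin, stood at 215 ± 25.5 and 72.6 ± 9.77 CPM, and S100A9 was the higher in 6 of 6 libraries (log2 ratio of S100A8 to S100A9 -1.56 ± 0.08 (SD), adjusted p = 0.0352, exact test). CX3CR1, the fractalkine receptor, stood at 100.0 ± 9.09 CPM and VCAN, a matrix proteoglycan, at 36.4 ± 2.15. The chemokine receptor CCR2, through which monocytes leave the marrow, was at 6.61 ± 1.68 CPM. S100A12 and FCN1, which are abundant in blood monocytes, stood at 1.59 ± 0.413 and 1.54 ± 0.289 CPM. CLEC4E, a receptor for mycobacterial glycolipid, had 0.101 ± 0.176 CPM.

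Progenitor and leukaemia genes were expressed at 23 of 30 (76.7%, beside 58.1% of all protein-coding genes), with a median of 21.2 CPM. MEF2C, a transcription factor of leukaemias with KMT2A fusions, had 838 CPM in the lowest library, a median of 924 and 947 in the highest. HMGA1, a chromatin protein, stood at 585 ± 31.6 CPM, SOX4 at 435 ± 44.6 and the cyclin-dependent kinase CDK6 at 407 ± 18.5. The receptor FLT3 had 59 CPM in the lowest library, a median of 62.6 and 69.8 in the highest. HOXA9 stood at 58.8 ± 6.15 CPM and HOXA10 at 54.3 ± 3.94, while other genes of the cluster were lower: HOXA7 at 7.08 ± 2.05, HOXA5 at 3.27 ± 1.08 and HOXA3 at 0.658 ± 0.438. MEIS1, which binds DNA together with HOXA9, had 1.81 ± 0.725 CPM and was lower than HOXA9 in 6 of 6 libraries (log2 ratio of HOXA9 to MEIS1 4.75 ± 0.60 (SD), adjusted p = 0.0352, exact test). The 3′ end of HOXA9 is covered over 95.3% by another annotated gene on the same strand, so its value is uncertain. KMT2A and MLLT3, the 2 partners of the fusion, stood at 39.6 ± 4.86 and 11.5 ± 1.23 CPM. Reads at 3′ ends cannot separate a fused from an unfused transcript. MYB, a factor of immature cells, had 38.5 CPM in the lowest library, a median of 43.7 and 49.2 in the highest.

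Several stem cell genes were near 0. CD34 had 11 counts in the 6 libraries together (0.39 ± 0.301 CPM), the surface protein gene PROM1 had 1, and the transcription factor gene MECOM stood at 0.0721 CPM. The stem cell factor receptor KIT stood at 2.79 ± 1.22 CPM, far below FLT3, which was higher in 6 of 6 libraries (log2 ratio 4.36 ± 0.55 (SD), adjusted p = 0.0352, exact test).

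The granule proteins that progenitors load on the way to neutrophils were mostly low. Of 22, 7 were expressed (31.8%, beside 58.1% of all protein-coding genes), 13 had a mean below 1 CPM, and the median was 0.692 CPM. SRGN, the proteoglycan core that packs granules in many blood cells, was the exception at 495 ± 34.1 CPM. RNASE2, an eosinophil and monocyte ribonuclease, had 83 ± 8.76 CPM and the protease CTSG 12.4 ± 2.14. MPO, the peroxidase that defines myeloblasts, had 4 counts in all (0.145 ± 0.114 CPM). DEFA1, DEFA3, DEFA4, LCN2 and CEACAM8 had no count in any library. The 3′ ends of DEFA1 and DEFA3 are shared with near-identical copies over 100% and 70.5% of their windows, so their zeros are uncertain.

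Of 40 lineage transcription factors 30 were expressed (75%, beside 58.1% of all protein-coding genes). RUNX3 stood at 209 ± 6.93 CPM, the retinoid partner receptor RXRA at 194 ± 7.87 and CEBPA at 186 ± 9.32. CEBPA was higher than SPI1 in 6 of 6 libraries (log2 ratio of SPI1 to CEBPA -1.48 ± 0.13 (SD), adjusted p = 0.0352, exact test). GFI1, a repressor of the monocyte fate in progenitors, was at 150.5 ± 6.38 CPM. IRF8, a monocyte and dendritic cell factor, stood at 54.8 ± 3.95 CPM. The erythroid factors GATA1 and KLF1 and the red-pulp macrophage factor SPIC had no count in any library.

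All 10 listed receptors for colony-stimulating factors and related cytokines were expressed, beside 58.1% of all protein-coding genes. CSF1R led, and CSF2RA, the ligand-binding chain for GM-CSF, was the lowest at 1.76 ± 0.241 CPM. CSF1R was higher in 6 of 6 libraries (log2 ratio 6.93 ± 0.13 (SD), adjusted p = 0.0352, exact test). The common chain CSF2RB stood at 15.6 ± 2.57 CPM, and the chains of the interferon gamma receptor at similar levels, IFNGR1 at 210.3 ± 4.99 and IFNGR2 at 214 ± 6.96.

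**Figure D2:**
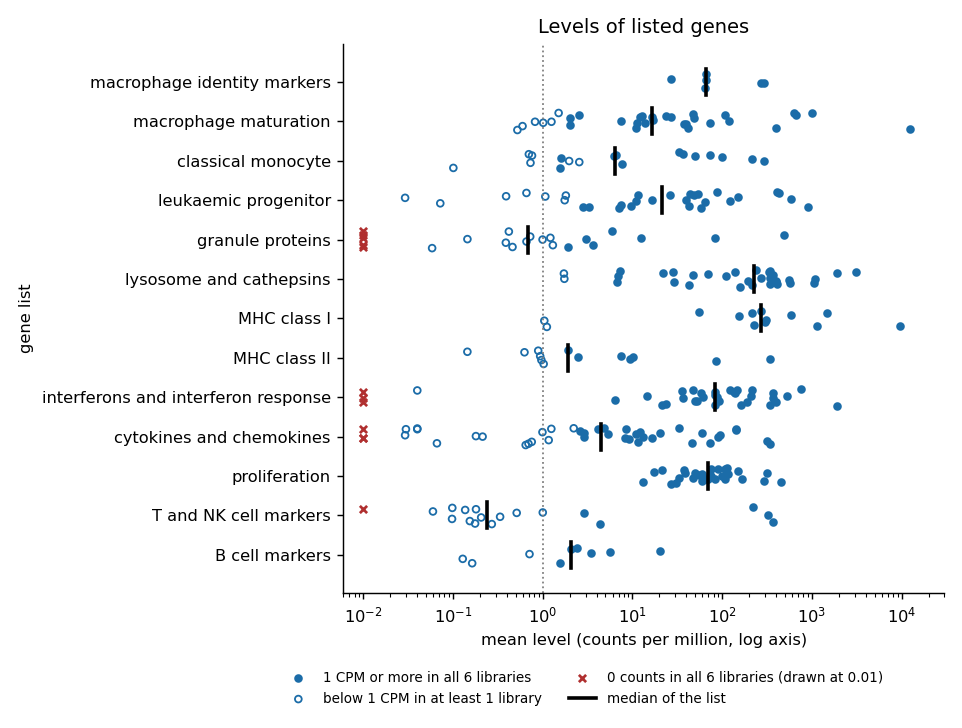
Mean level of each member of 13 gene lists (rows) in CPM on a log axis. Filled points reached 1 CPM in all 6 libraries, open points did not, crosses had no count, and black bars are list medians. Medians run from 0.238 CPM for T and NK cell markers to 269 for MHC class I, and the granule and T cell lists lie mostly left of the dotted line at 1 CPM.

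MHC class I genes had a median of 269 CPM, and 11 of 13 were expressed (84.6%, beside 58.1% of all protein-coding genes). Of the 13, 10 stood at 100 CPM or more, beside 9.96% of all protein-coding genes, with HLA-B at 1455 ± 48.9 CPM behind B2M. MHC class II genes had a median of 1.92 CPM and 7 of 13 were expressed (53.8%, near the 58.1% of all protein-coding genes). CD74, the invariant chain that guards the class II groove, stood at 338 ± 18.8 CPM and HLA-DRB1 at 84.4 ± 2.77. HLA-DRA, the partner chain of HLA-DRB1, had 7.5 CPM in the lowest library, a median of 8.69 and 18.4 in the highest, and without replicate 4, which was the highest, its mean was 8.61 ± 1.01 (SD, n = 5). CIITA, the factor that switches class II genes on, stood at 0.89 ± 0.611 CPM, with another gene on the same strand over 64% of its 3′ end.

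Of 35 interferon and interferon-response genes 31 were expressed (88.6%, beside 58.1% of all protein-coding genes). The list median was 83.9 CPM, and 15 of the 35 stood at 100 CPM or more, beside 9.96% of all protein-coding genes. The 4 that were not expressed are the interferons themselves: IFNB1 had 1 count in the 6 libraries together, and IFNG, IFNL1 and IFNE had none. IFNB1 and IFNE lie in a segment of chromosome 9, described below, in which no protein-coding gene had a mean of 1 CPM or more. IFI6, a mitochondrial and reticulum protein induced by type I interferon, had 1707 CPM in the lowest library, a median of 1912 and 2228 in the highest. IFITM3, which blocks virus entry, had 763 ± 49.8 CPM, though it shares 43.4% of its 3′ end windows with copies such as IFITM2. BST2, which tethers budding virus, stood at 533 ± 43.6 CPM and the RNA-sensing synthetase OAS3 at 398 ± 37.6. ISG15, a ubiquitin-like modifier, had 310.1 CPM in the lowest library, a median of 326 and 433 in the highest, with replicate 6 apart from the others. The lowest of the expressed members were IFITM1 at 6.35 ± 0.941 CPM, whose 3′ end is covered by IFITM2 on the same strand, and MX1 at 14.4 ± 2.51. All the cells carried a lentiviral vector, and untransduced cells were not analysed here, so the part of the virus in these levels was not tested.

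Interferon-response genes are known to carry an element bound by the ISGF3 complex and IRF factors. The 250 bases before the RefSeq start (GRCh38.p14) were therefore read on both strands for GAAA, any 2 bases and GAAA again, with matches allowed to overlap. The promoters of B2M and of 3 of the listed genes, IFI6, IFITM3 and ISG15, are given to show where the element sits in them. Matches are in capitals, and B2M and ISG15 each have 2 that overlap. Upstream bases are written 5′ to 3′ in the direction of the gene, from chr1:27672193-27672442 (minus strand) for IFI6, chr11:320861-321110 (minus strand) for IFITM3, chr1:1013247-1013496 (plus strand) for ISG15 and chr15:44711267-44711516 (plus strand) for B2M.
IFI6: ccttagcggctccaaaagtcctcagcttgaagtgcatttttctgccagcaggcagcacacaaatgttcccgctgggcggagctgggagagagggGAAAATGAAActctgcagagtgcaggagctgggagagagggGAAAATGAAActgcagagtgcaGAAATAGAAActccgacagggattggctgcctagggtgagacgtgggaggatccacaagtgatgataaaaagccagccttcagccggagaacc
IFITM3: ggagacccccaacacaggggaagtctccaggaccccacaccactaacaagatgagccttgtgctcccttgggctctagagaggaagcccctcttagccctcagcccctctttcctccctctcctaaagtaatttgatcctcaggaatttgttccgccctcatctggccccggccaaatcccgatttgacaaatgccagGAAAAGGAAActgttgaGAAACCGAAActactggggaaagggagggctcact
ISG15: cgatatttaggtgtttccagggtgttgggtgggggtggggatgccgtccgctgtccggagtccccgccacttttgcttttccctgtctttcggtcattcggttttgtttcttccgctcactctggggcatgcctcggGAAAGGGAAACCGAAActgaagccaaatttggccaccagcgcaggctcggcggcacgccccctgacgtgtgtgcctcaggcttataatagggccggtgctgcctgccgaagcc
B2M: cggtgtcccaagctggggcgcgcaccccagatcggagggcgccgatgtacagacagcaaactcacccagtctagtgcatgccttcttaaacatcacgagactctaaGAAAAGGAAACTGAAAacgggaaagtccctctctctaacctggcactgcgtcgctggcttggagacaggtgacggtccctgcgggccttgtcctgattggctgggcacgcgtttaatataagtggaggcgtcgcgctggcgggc
The first match in IFI6 began 156 bases before the start and was followed by others at 115 and 93. In IFITM3 matches began 52 and 35 bases before the start, in ISG15 113 and 107, and in B2M 144 and 138. Of the 35 listed genes 25 had an entry in the promoter table, and 14 of these held the motif. It was present in 834 of 27305 promoters in the table (3.05%) and in 2.36% of those of expressed protein-coding genes. IFNL1, at 0 counts, was among the holders, and the interferons IFNB1, IFNG and IFNE were not. OAS1 and XAF1, at 187 ± 11.2 and 210.2 ± 8.3 CPM, had no match in this window. Of the MHC class I genes 10 had an entry and 4 held the motif, B2M among them, while HLA-B and HLA-C had no match. A match is a description of the sequence and not of binding, and no test was made.

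Other short motifs were counted in the same windows. TATAAA was present in 11.3% of all promoters, in 5.51% of 9473 promoters of expressed protein-coding genes and in 22.3% of 2456 promoters of protein-coding genes with no count. CCGGAAGT, a form of the ETS motif of housekeeping promoters, went the other way, at 7.43% of expressed and 0.733% of uncounted genes. GAGGAAGT, a form of the PU.1 motif, was at 2.21% and 1.83%.

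Of 42 cytokine and chemokine genes 25 were expressed (59.5%, near the 58.1% of all protein-coding genes), with a median of 4.51 CPM. Of the 42, 4 stood at 100 CPM or more, beside 9.96% of all protein-coding genes. IL1B, the pyrogenic cytokine, had 297 CPM in the lowest library, a median of 311 and 349.7 in the highest. IL1RN, its natural antagonist at the receptor, had 311 CPM in the lowest library, a median of 349 and 351 in the highest. The ranges overlapped, and IL1RN was the higher in 5 of 6 libraries (log2 ratio of IL1B to IL1RN -0.10 ± 0.12 (SD), adjusted p = 0.132, exact test). The chemokine genes CCL20 and CCL5 stood at 144 ± 9.54 and 141 ± 7.34 CPM and CXCL8, which calls neutrophils, at 89.3 ± 7.47. CCL3 was higher than CCL4 in 6 of 6 libraries, with CCL4 at 18.7 to 24.2 CPM and CCL3 at 50.7 to 67.4 (log2 ratio 1.56 ± 0.27 (SD), adjusted p = 0.0352, exact test), although an antisense gene covers 87.7% of the 3′ end of CCL3. TNF stood at 9.05 ± 1.97 CPM and IL10 at 0.754 ± 0.535. IL6, CSF3 and CCL24 had no count in any library.

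Among toll-like receptors and their adaptors 13 of 18 were expressed (72.2%, beside 58.1% of all protein-coding genes). TLR2, which senses bacterial lipoproteins, stood at 75.6 ± 7.19 CPM and TLR4, the lipopolysaccharide receptor, at 9.73 ± 1.06, with its partner LY96 at 26.3 ± 1.58. The adaptor MYD88 stood at 60.4 ± 5.52 CPM. TLR7 and TLR8, sensors of single-stranded RNA, had 11.7 ± 1.79 and 3.41 ± 0.533 CPM. TLR9 and TICAM2 had no count, but the 3′ end of TLR9 is covered over 99.7%, and that of TICAM2 over 100%, by another annotated gene on the same strand.

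Genes of dividing cells were all expressed, at 29 of 29 beside 58.1% of all protein-coding genes, with a median of 70.0 CPM. STMN1, a microtubule regulator, stood at 456 ± 15.4 CPM. TOP2A, the topoisomerase that untangles replicated chromosomes, had 283 CPM in the lowest library, a median of 322 and 342 in the highest. CDC20, an activator of anaphase, had 291 ± 9.47 CPM and the proliferation antigen gene MKI67 107 CPM in the lowest library, a median of 113 and 123 in the highest. Bulk RNA cannot tell a few cycling cells with much of this RNA from many with little. Brakes of the cycle were abundant as well. BTG1, an antiproliferative gene, stood at 2538 ± 128 CPM. CDKN1A, which encodes the inhibitor p21, had 795 CPM in the lowest library, a median of 827 and 834 in the highest. The cyclins CCND3 and CCND1 stood at 388 ± 8.85 and 273 ± 16 CPM.

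The inhibitor genes CDKN2A and CDKN2B lay at the bottom of the same list, with 6 and 2 counts over all 6 libraries. CDKN1A was higher than CDKN2A in 6 of 6 libraries (log2 ratio on CPM + 0.5 of 10.21 ± 0.27 (SD), adjusted p = 0.0352, exact test). Their neighbours on chromosome 9 were as low, in coordinates of GRCh38 and GENCODE release 29. KLHL9 stood at 0.364 CPM, MTAP, an enzyme of methionine salvage, at 0.228, and DMRTA1 at 0.409. The interferon alpha genes between them had no count. The genes just before this segment were expressed, with HACD4 (chr9:20999515-21031636) at 18 ± 2.46 CPM and FOCAD (chr9:20658309-20995955) at 41 ± 2.99. CDKN2B-AS1 (chr9:21994778-22121097), a long non-coding RNA that runs across CDKN2B, was at 15.8 ± 3.33 CPM. The DNA of this segment was not analysed here, so a lost copy and a silent one cannot be told apart.

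High levels were grouped in one place on chromosome 1. Windows of 11 neighbouring protein-coding genes, out of 12295 with a mean of at least 1 CPM, were compared over the genome. The median of 12063 such windows was 26.4 CPM and their 99th percentile 103. The highest window ran from BMP8B to SMAP2 (chr1:39757182-40423326) with a median of 651 CPM, and 9 of its 11 genes stood at 100 CPM or more, beside 16% of all such genes. The next window that did not overlap it, NFYC to PPCS (chr1:40691648-42473385), lay further along the same arm with a median of 181 CPM, and the 5 expressed genes between the windows stood at 25.2 (ZFP69B) to 167 CPM (EXO5). Within the highest window CAP1 (chr1:40040233-40072649) and PPT1 (chr1:40071461-40097727) lie tail to tail, and each one's 3′ end is covered over 100% by the other on the opposite strand. RLF, a zinc finger gene, stood at 651 ± 24 CPM, the prenylation protease gene ZMPSTE24 at 877 ± 54.2, SMAP2 at 1129.8 ± 27.5 and BMP8B at 1073 ± 36.2. PABPC4, a poly(A)-binding protein gene just before the window, had 1459.9 ± 81.8 CPM, and MYCL, inside it, 78.7 ± 5.31. The copy number of the segment was not analysed here.

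**Figure D3:**
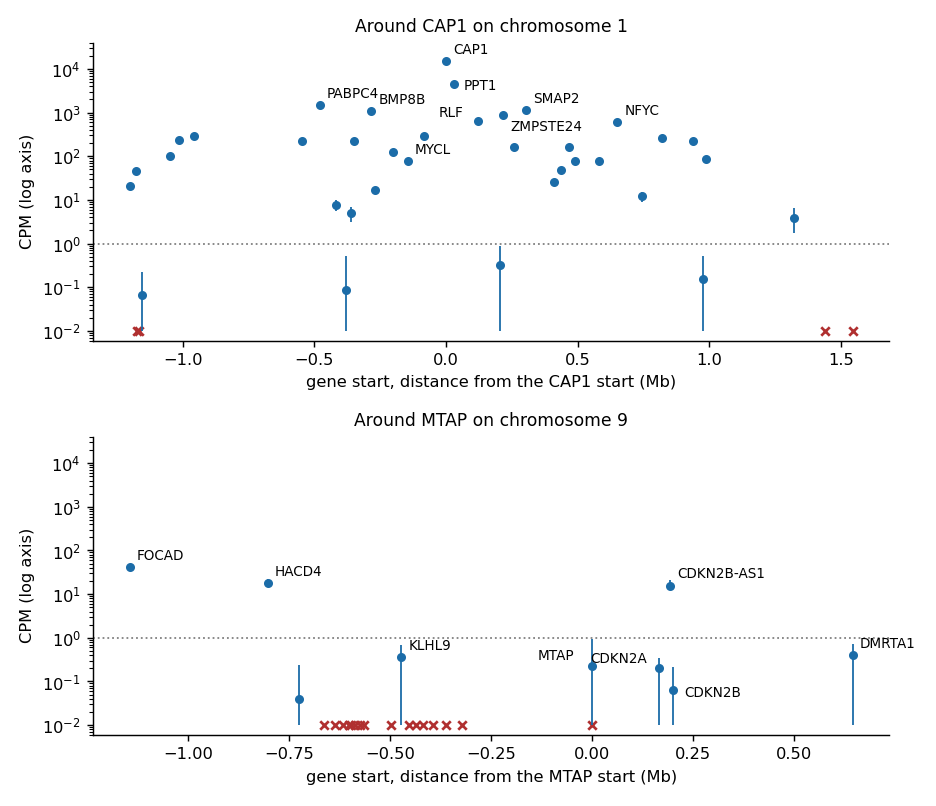
Level of protein-coding genes and CDKN2B-AS1 (points, mean CPM on a log axis; lines run from the lowest to the highest library; crosses had no count) against the distance of the gene start from that of CAP1 (top) and MTAP (bottom). CAP1 and PPT1 top a cluster of genes above 100 CPM, while between HACD4 and DMRTA1 CDKN2B-AS1 alone exceeds 1 CPM.

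Iron storage and redox genes were expressed at 21 of 22 (95.5%, beside 58.1% of all protein-coding genes), with a median of 125 CPM. The ferritin chains FTH1 and FTL stood at 1992 ± 74.8 and 1462 ± 80.0 CPM, and FTH1 was the higher in 6 of 6 libraries (log2 ratio of FTL to FTH1 -0.45 ± 0.06 (SD), adjusted p = 0.0352, exact test). PRDX1, a peroxidase of the cytosol, had 937 ± 33 CPM, and HMOX1, which breaks down haem, 136 ± 10.5. The iron exporter SLC40A1 was at 3.67 ± 1.25 CPM and its hormone HAMP at 0.317 ± 0.315. Of 20 genes of lipid handling 19 were expressed (95%, beside the same 58.1%). They were led by the tetraspanin CD81 at 1345 ± 60.2 CPM and by the lipid-droplet coats PLIN3 at 406 ± 12.7 and PLIN2 at 383 ± 17.1. APOE, the main apolipoprotein of macrophages, stood at 7.39 ± 2.49 CPM. Glycolysis genes were expressed at 19 of 21 (90.5%, beside the same 58.1%), with GAPDH at 1992 ± 120.1 CPM and ENO1 at 782 ± 39.5. ALDOA, whose enzyme splits fructose bisphosphate, was listed at 0.192 ± 0.273 CPM, and its whole 3′ end lies within another annotated gene on the same strand.

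The study's own targets were at modest levels. CD33 had 41.2 CPM in the lowest library, a median of 48.4 and 49.9 in the highest. PTPN6 had 37.6 CPM in the lowest library, a median of 47.2 and 54 in the highest. They were the values of cells in which neither was perturbed, and the ranges overlapped. Of 21 Siglecs, related inhibitory receptors and their phosphatases, 16 were expressed (76.2%, beside 58.1% of all protein-coding genes). INPP5D, the lipid phosphatase SHIP1, stood above PTPN6 at 318 ± 13.2 CPM, and PTPN11, the phosphatase SHP-2, at 61.3 ± 8.85. PECAM1, an adhesion receptor with inhibitory motifs, had 169 ± 8.55 CPM and SIRPA, which binds CD47, 91.7 ± 3.07. CD22, best known from B cells, was the highest of the listed Siglecs at 61.7 ± 3.11 CPM. It was ahead of CD33, of SIGLEC1 (listed with macrophage maturation) at 41.3 CPM and of SIGLEC15 at 31.8 ± 1.76. SIGLEC9 stood at 9.67 ± 1.18 CPM, and SIGLEC10 and MAG at 0.41 and 0.419.

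Median levels of the lists of other cell types ran from 0.117 CPM (mast cell) to 3.95 (fibroblast and endothelial). The median protein-coding gene stood at 6.04 CPM. Expressed shares were not low in every list. Of 9 B cell genes 6 were expressed (66.7%) and of 7 microglial genes 4 (57.1%), both near the 58.1% of all protein-coding genes. The B cell genes IGKC and PAX5 stood at 20.4 and 5.68 CPM. Of 18 T and NK cell genes 5 were expressed (27.8%, beside 58.1% of all protein-coding genes), and the list median was 0.238 CPM. However, 3 of the 18 stood at 100 CPM or more, beside 9.96% of all protein-coding genes. GNLY, which encodes a cytotoxic granule protein, had 306 CPM in the lowest library, a median of 368 and 406 in the highest. TRAC, the constant segment of the T cell receptor alpha chain, had 309 CPM in the lowest library, a median of 322 and 354 in the highest, and the adhesion molecule NCAM1 204 CPM in the lowest library, a median of 218 and 244 in the highest. The defining T cell genes CD3D and CD3E had 3 and 4 counts in the 6 libraries together and CD8B had none. The summed level of the list moved between 843 and 963 CPM over libraries. Erythroid genes were low, with HBB at 6.83 ± 3.74 CPM and no count for ALAS2. Mast cell genes were led by TPSB2 at 6.21 ± 1.27 CPM, and CPA3 and MS4A2 had no count. Dendritic cell genes apart from FLT3 and IL3RA did not exceed 5.9 CPM (CLEC10A), and CLEC9A and CLEC4C had no count. Among microglial genes OLFML3 stood at 42.9 ± 3.75 CPM beside CX3CR1, SLC2A5 at 25.6, TMEM119 at 2.44 and P2RY12 at 0.276 ± 0.246. The epithelial keratin KRT19 and the adhesion molecule EPCAM stood at 0.174 and 0.22 CPM, while the cadherin CDH1 was at 25.4 ± 5.53. The virus was made in HEK-293FT cells, and of the neural genes known from that line INA stood at 18.1 ± 3.22 CPM and NEFM at 0.222.

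Some collagen, immunoglobulin and complement genes were highest in replicate 4. IGKC, the kappa light chain, stood at 42.6 CPM there and at 12.6 to 21.3 in the other 5 libraries. HSPG2, a basement membrane proteoglycan, stood at 48.6 CPM against 17.6 to 21.1. The collagen gene COL3A1 stood at 10.0 CPM against 2.18 to 3.05 and DCN, a collagen-binding proteoglycan of fibroblasts, at 6.67 against 0 to 1.64. The complement gene C1QB stood at 5.09 CPM against 0.358 to 1.5, and HLA-DRA at 18.4 against 7.5 to 10.1. Replicate 4 had 8 genes that reached 3 CPM and at least 3 times the level of every other library, the named ones among them being C1QB, CDH13, COL3A1, DCN, MXRA8, NRG4 and PCOLCE. The same count was 1 in replicate 1 and 0 in replicates 2, 3, 5 and 6. The sum of 9 B cell markers, IGKC among them, was 69.1 CPM in replicate 4 and 25.5 to 34.8 elsewhere. Of 12 fibroblast and endothelial genes 5 were highest in replicate 4, and PDGFRA, TIE1, CLDN5, VWF and CDH5 were among those that were not. The sum of that list was 239 CPM there and 212 to 231 elsewhere. Of the 6 identity markers 4 were lowest in replicate 4 and 1, ITGAM, was highest there. Among the lowest were CD14, at 245 CPM against 278 to 326, and SPI1, at 52.4 against 63.8 to 73.6. The sum of the 6 markers was 729.6 CPM there and 767 to 840.1 elsewhere. Of the 32 genes of macrophage maturation 13 were highest in replicate 4 and 6 were lowest. The source of these differences was not tested. C1QA and C1QB encode chains of one complex, and C1QA was higher in 6 of 6 libraries (log2 ratio 3.06 ± 0.81 (SD), adjusted p = 0.0352, exact test). Without replicate 4 their means were 12 ± 1.31 and 0.786 ± 0.456 CPM (SD, n = 5).

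**Figure D4:**
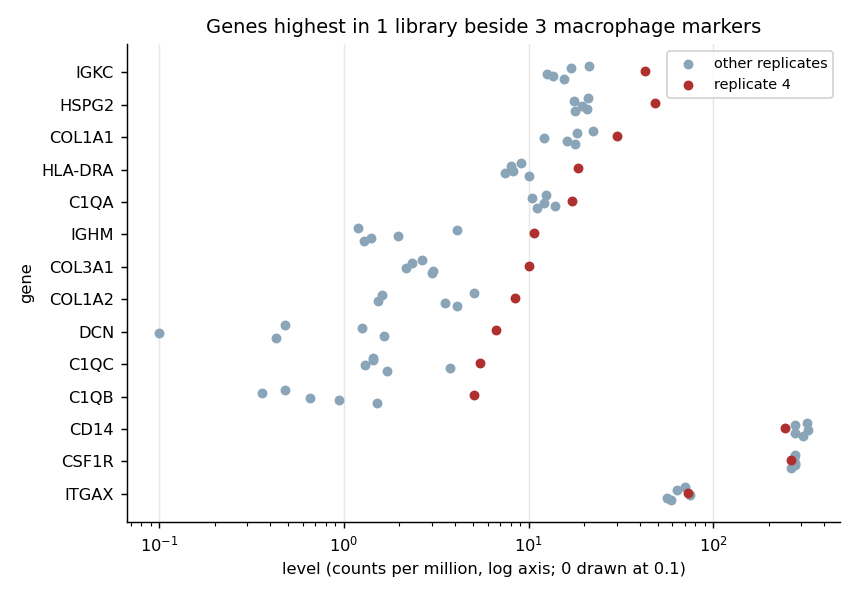
Level in each library (CPM, log axis) of 11 genes that were highest in replicate 4 (red) beside 3 macrophage markers, with a count of 0 drawn at 0.1. For IGKC, HSPG2, COL3A1, DCN and HLA-DRA replicate 4 lies apart from the other 5, while for CD14 and CSF1R it is the lowest and for ITGAX it lies among them.

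The libraries were otherwise close to each other. Over 9316 genes with a mean of at least 10 CPM the median CV was 8.95%, beside a median of 7.16% that counting alone gives at these depths. For genes of 10 to 30 CPM the median CV was 12.9% against 10.8% from counting. At 100 to 1000 CPM it was 5.61% against 3.51%, and for the 94 genes above 1000 CPM 5.45% against 1.13%. The biological coefficient of variation common to all genes, estimated by edgeR over 11749 genes, was 6.25%. Pairs of libraries had a Pearson r of 0.987 to 0.991 on log2(CPM + 0.5), a description across these 9316 genes, which are not independent replicates. Between 2 and 16 genes differed by 2-fold or more in a pair.

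The genes whose CV exceeded the counting CV by most were abundant ones: MT-RNR2, S100A4, B2M, MALAT1, LGALS1, MT-ATP8, RPL36, MMP14, RPL37A and RPS29, in that order. RPL36, a protein of the large ribosomal subunit, had 612 CPM in the lowest library, a median of 658 and 942 in the highest. RPS29, of the small subunit, had 1185 CPM in the lowest library, a median of 1205 and 1617 in the highest. Both were highest in replicate 6 and next in replicate 4, the libraries with the larger share of ribosomal protein counts, as were LGALS1, S100A4 and RPL37A. MT-ATP8, a short gene of the ATP synthase, had 755 CPM in the lowest library, a median of 1039 and 1232 in the highest, with replicate 6 the lowest and replicate 4 next. MMP14 had the same order. B2M was highest in replicate 6 and lowest in replicate 4, while MALAT1 was highest in replicate 4 and lowest in replicate 6. The part of RNA quality or of the culture in this was not tested. PNOC and CDKN1A, at 1650.0 ± 35.9 and 821 ± 15.6 CPM, were among the abundant genes with little spread.

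**Figure D5:**
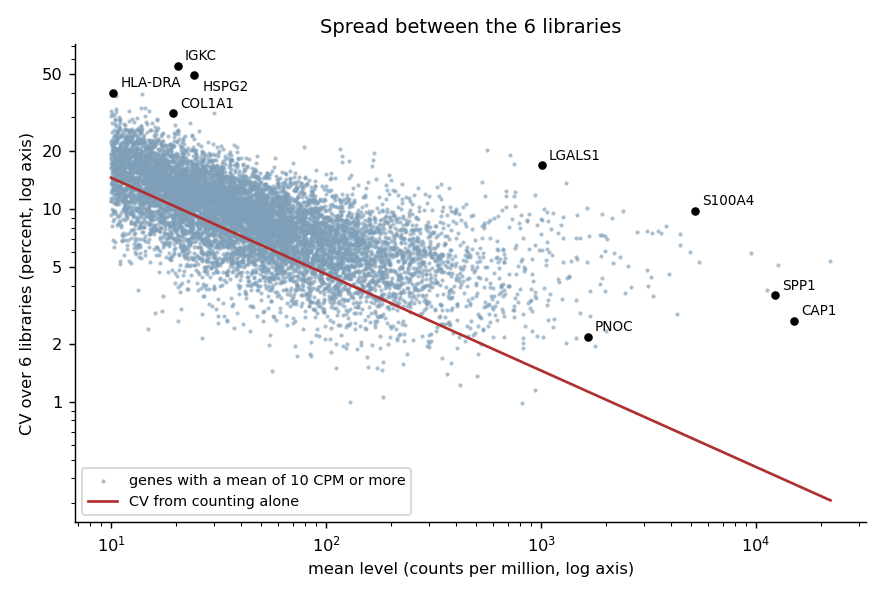
Coefficient of variation over the 6 libraries (percent, log axis) against mean level (CPM, log axis) for the 9316 genes of 10 CPM or more, with the CV that counting alone gives as a red line. Most genes below 100 CPM lie near the line, while S100A4 and LGALS1 lie far above it and IGKC, HSPG2 and HLA-DRA, all highest in replicate 4, lie at the top left.

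Low values were more frequent where annotated genes overlap on the same strand. Of 19620 protein-coding genes with a 3′ end of 300 bases in GENCODE release 29, 1016 had at least 50% of an end covered by another gene on the same strand. Of those 295 (29%) were expressed, with a median of 0.0400 CPM, beside 59.0% of all and 59.1% of the 16129 genes with no overlap. Among 1257 genes overlapped to that extent on the opposite strand alone 73.3% were expressed, with a median of 17.0 CPM. MIF, a cytokine gene listed at 16.6 ± 2.09 CPM, and IRF9, at 21.6 ± 4.89, had 99% and 100% of an end covered on the same strand. EEF1A1, which encodes the elongation factor that brings transfer RNA to the ribosome and is one of the most abundant messages of most cells, was at 14.9 ± 2.45 CPM. Its end is not overlapped and shares 9.16% of its windows, and its 49 numbered pseudogenes together held 6.32 CPM. GAPDH, with 65 numbered pseudogenes at 2.91 CPM in sum, stood at 1992 CPM. TMSB4X, an actin-binding thymosin, stood at 266 ± 16.4 CPM and was lower than TMSB10 in 6 of 6 libraries (log2 ratio -2.46 ± 0.14 (SD), adjusted p = 0.0352, exact test), with 33.6 CPM in 6 numbered pseudogenes. How reads that fit several places were counted is not given in the sources used here, and its part in these levels was not tested.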

How the data were processed

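Gene counts of 6 libraries of PMA-treated THP1 macrophages were read from the table of raw counts that the authors deposited, with whole-number counts per Ensembl gene. Libraries were made with QuantSeq 3′ mRNA-Seq, per the labels' protocols. Named without roles, per the submitters' processing notes, were hg38, STAR 2.7.3a, Subread 2.0.0 with featureCounts, bcl2fastq, DESeq2 1.26.0 and R 3.6.1. The annotation release, the strand setting and the treatment of duplicates and multiple hits are not given in the sources used here.

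Counts were divided by the library total (CPM), with Python 3.11.15, pandas 2.3.3 and scipy 1.17.1. Depths of 4170191 to 5700712 counts set the precision, and floors cover counting error only. Gene symbols matched 99.41% of identifiers. Spread was estimated with edgeR 4.0.16 in R 4.3.3 after TMM scaling and filterByExpr, with DESeq2 1.42.0 size factors as an alternative. Gene pairs were tested by an exact two-sided sign-flip permutation of log2(CPM + 0.5) ratios. Both procedures were also run on simulated data. The genes of a simulated pair were drawn independently from a single base level, while the real pairs spanned many levels. No conclusion is drawn from these runs.

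Genes were named as markers, study targets, the 20 most abundant, leading or uncounted members of each list, pair members, the 5 leading long non-coding RNAs, and the 10 with the most spread over counting, with further list members for description. The members, the 32 lists and the pairs were chosen with earlier results of these data known. The genes of replicate 4, the chromosome windows, the 3′ end overlaps and the promoter motifs were looked at after the values were seen. Alternatives changed the scaling, the expression limit, the pseudocount, the depth, the filter and the libraries used. The other 3 groups of the study were not analysed here. Some listed genes are not reported here.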

Additional observations from a re-analysis of the deposited data

Results flagged for a closer look

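In 18 of 183 named genes with at least 30 counts, and in 4 of 32 list sums, 1 library stood apart from the other 5 by Dixon's criterion, which chance meets in about 1 group in 20. IGKC, HSPG2, COL3A1, DCN, C1QB and HLA-DRA were named because replicate 4 was high, so their place here adds nothing to that pattern. Without them the share was 12 of 177 genes (6.78%), beside 531 of all 9316 genes of at least 10 CPM (5.70%). The causes of these deviations were not tested.

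Replicate 4 accounted for 8 of the genes. It held the highest level of IGKC (42.6 CPM), HSPG2 (48.6), COL3A1 (10.0), DCN (6.67), C1QB (5.09) and HLA-DRA (18.4), as described above. PLAUR, the urokinase receptor, was lowest there at 535 CPM against 651 to 713 elsewhere. The cyclin gene CCND3 was also lowest there, at 371 CPM against 386 to 394. The summed level of B cell markers was highest in replicate 4 at 69.1 CPM, of which IGKC held 42.6 and IGHM 10.7. Of the 9 markers 6 were highest there. The sum of matrix genes was lowest there at 19671 CPM against 20634 to 21207. SPP1 held 11636 CPM and MMP14 3531 CPM of that sum in replicate 4.

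Replicate 6 accounted for 7 genes. ISG15 was at 433 CPM against 310.1 to 331 in the other libraries, and the adaptor TYROBP at 1150.1 against 941 to 996. S100A6 was at 4156 CPM against 3466 to 3640.1, and TIMP1 at 550.1 against 490.1 to 510.3. The monocyte chemokine receptor CCR2 was at 9.83 CPM against 5.15 to 6.84. PABPC4 was lowest there at 1303 CPM against 1453 to 1530.3, and so was the phosphatase gene PTPN11 at 44.8 against 59.5 to 68.1. The sums of glycolysis genes, 6117 CPM against 5449 to 5680.2, and of housekeeping genes, 21133 against 19233 to 19820, were highest in replicate 6. B2M was a member of the housekeeping list and stood at 10415 CPM in replicate 6 against 8839 to 9817 elsewhere. Of the 16 housekeeping genes 6 were highest in replicate 6 and 2, ACTB among them, were lowest. Of the 21 glycolysis genes 10 were highest there and 2 lowest.

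The 3 others were spread over 3 libraries. The chemokine gene CCL4 was highest in replicate 3 at 24.2 CPM against 18.7 to 19.8, and SCARB2 in replicate 1 at 186 against 149.8 to 163. SERPINB2 was lowest in replicate 2 at 0.234 CPM against 1.52 to 1.97.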

How the results depend on the processing

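Of 418 values recomputed for the counts, shares and medians under alternatives, 404 stayed within the bound set for them (1.5 times for counts, 1 SD for others). At a limit of 2 CPM 2 of 9 B cell markers were expressed in place of 6, and at 0.5 CPM 2 of 6 mast cell markers in place of 1. At the main limit of 1 CPM these shares were 66.7% and 16.7%, beside 58.1% of all protein-coding genes. The number of all expressed identifiers also fell at 2 CPM and rose at 0.5 CPM, and no share of protein-coding genes is given for those limits. Without mitochondrial genes the 10, 100 and 1000 most abundant genes held 8.17%, 22.5% and 54.2% of the counts, 794 genes held 50%, and the median of expressed genes was 25.5 CPM in place of 23.9. Without the filter on low counts the median gene-wise biological CV was 29.7% in place of 7.30%. TMM and DESeq2 scaling moved no named level by more than 1.17% and 0.942%, while totals without mitochondrial genes moved 73 of 203 by over 1 SD, by up to 6.8%. With pseudocounts of 0.1 and 2 CPM 16 pairs passed. Leaving out each library in turn, 0 to 0 pairs passed, since 5 libraries cannot give a p below 0.0625, so this says nothing of stability. The common biological CV was 5.53% to 6.58% with 1 library left out, and lowest without replicate 6. No paired analysis was possible because 1 group was described and no contrast between groups was made. Depth limits what is said of genes below 1 CPM, where the 6 libraries together hold few counts.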

Other observations

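Of 12 genes of fibroblasts and endothelium 8 were expressed (66.7%, near the 58.1% of all protein-coding genes), led by PECAM1, which leukocytes also express. The growth factor receptor PDGFRA stood at 12.7 ± 1.58 CPM (SD, n = 6), the endothelial receptor TIE1 at 5.74 ± 1.25 and the tight-junction gene CLDN5 at 4.35 ± 1.47. KDR and CDH5, which define endothelium, stood at 0.324 and 0.562 CPM. Among the 86 ribosomal protein genes 82 were expressed, beside 58.1% of all protein-coding genes. Among the 37 genes of the mitochondrial genome 29 were expressed, beside 21.7% of all identifiers.

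Over the 9316 genes of at least 10 CPM, replicate 6 stood apart from the other 5 libraries on the high side in 88 genes and on the low side in 82. The other libraries did so in 35 to 52 genes on the high side and 26 to 40 on the low side. In all, 531 of the genes (5.70%) had such a library, near the 1 in 20 that chance gives.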
